A study of Mus musculus with 17 samples.

Results

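Uterine gene expression of Egr1 knockout (KO) mice was compared between 24 h and 6 h after estradiol (E2), a step that takes the uterus between the early and the late phase of its estrogen response. The comparison rests on 4 of the 17 bead arrays of the series, 2 of KO uteri at 24 h and 2 of KO uteri at 6 h, chosen by the genotype and time in the labels and by no measured value. The same step in wild type (WT) uteri, with 2 arrays at 24 h and 2 at 6 h, was set beside it and shares no array with it. No array at 0 h enters either difference, and the arrays at 0 h and 3 h served to estimate the spread between replicates and to choose the probes tested. The 4 groups compared were uterine tissue collected after E2. The sources used here name no strain, age, knockout allele, ovary status or E2 dose, and do not say whether animals were pooled. The labels do not tie arrays to animals. A p-value below therefore sets a difference against the array-to-array spread of these samples, and that spread may be technical.

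Estradiol drives the uterus through an early phase, in which transcription factor genes, fluid uptake and vessel permeability respond within hours, and a late phase, in which the epithelium replicates its DNA and divides while secretory and matrix proteins are made. EGR1 is a zinc-finger transcription factor of the immediate-early class, the genes that growth factor and hormone signals switch on without new protein synthesis. In bulk tissue, fewer cells of a type and less RNA per cell cannot be told apart.

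Values are deposited log2 expression values, with a median of 8.20 on every array, and a difference of 1 on this scale is a 2-fold change. Errors after ± are standard errors (SE) of the limma fit, and a gene is said to have risen or fallen where its limma p, adjusted over all 14737 genes tested, was under 0.05. The 2 KO 24 h arrays correlated at r = 0.997 over all probes and the 2 KO 6 h arrays at r = 0.992, against 0.961 to 0.969 between the times. Only 2 genes lay over 2-fold apart between the KO 24 h arrays, against 51 genes between the KO 6 h arrays. The second KO 6 h array stood apart in fat cell genes, with a mean over 11 adipocyte markers of 10.68, against 9.06 on the first KO 6 h array and 9.09 and 9.36 on the KO 24 h arrays. Results that turn on that array are given with and without it.

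Egr1, the targeted gene, read 13.51 and 13.27 on the KO 24 h arrays, against 14.74 and 14.55 on the KO 6 h arrays. In WT it read 11.39 and 12.09 on the WT 24 h arrays, against 13.85 and 13.97 on the WT 6 h arrays. The probe was thus higher on arrays labelled KO than on arrays labelled WT at both times, with no overlap. It fell by 24 h in KO (log2 difference -1.25 ± 0.18, limma adjusted p = 9.31e-05) and in WT (-2.17, adjusted p = 1.13e-06). The sources used here do not place the probe inside or outside the deleted sequence. Its level is thus no check on genotype, and KO and WT below stand for the labels.

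Between 6 h and 24 h the KO uterus changed on a large scale: 2897 of 14737 genes rose (19.7%) and 2746 fell (18.6%), together 38.3%. Each count of list members in KO below is to be read against these shares. At least 2-fold, 306 genes rose (2.08%) and 260 fell (1.76%). The largest rises included DNA replication, mitosis and histone genes and the collagen gene Col1a1, and the largest falls included growth factor feedback inhibitors, transporters, chemokines and amino-acid stress genes. The KO 24 h and KO 6 h arrays did not overlap in 67.1% of genes, 33.0% with higher values at 24 h and 34.0% with lower values, so absence of overlap alone sets no gene apart here.

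**Figure D1:**
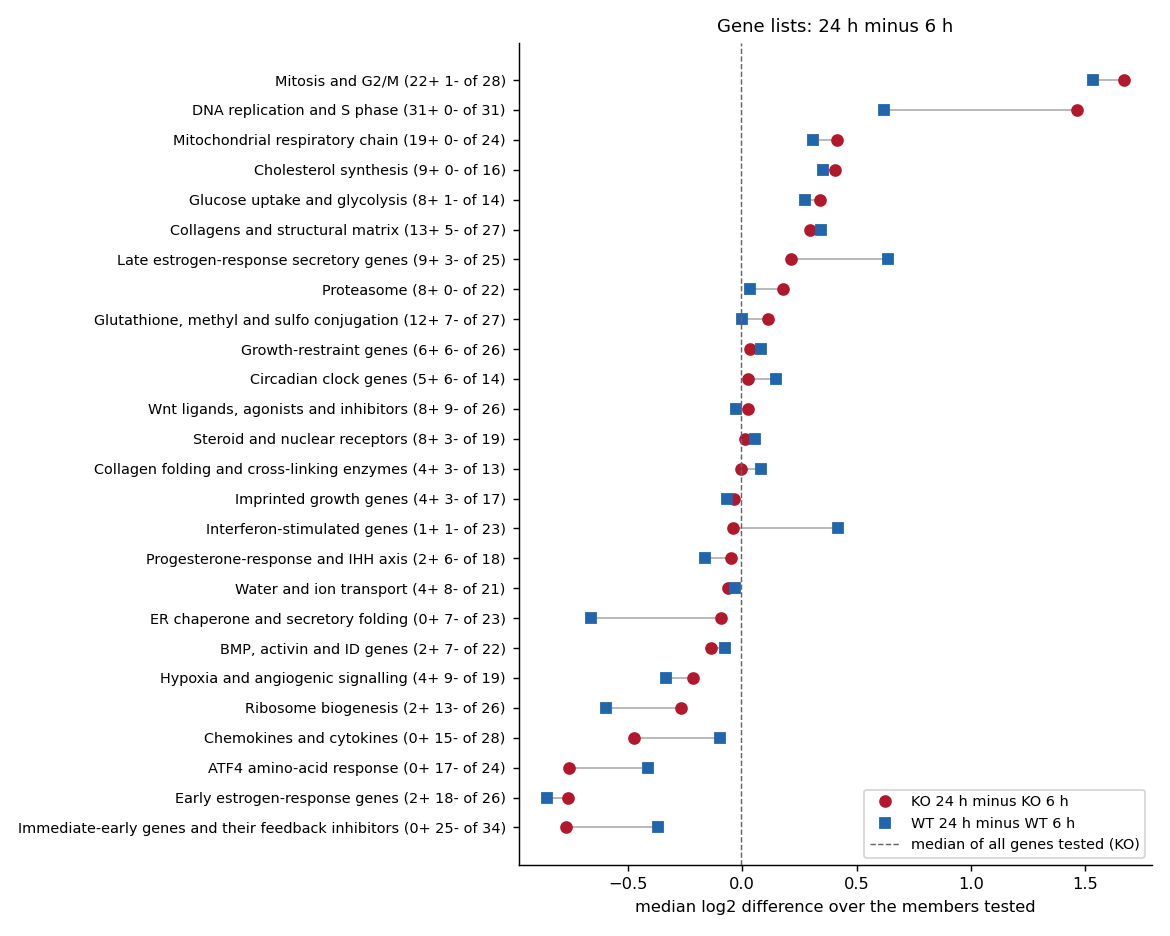
Median log2 difference between 24 h and 6 h over the members tested of each of 26 gene lists (horizontal axis, log2), for KO (red circles) and WT (blue squares). Brackets give how many members rose (+) and fell (-) in KO of those tested, and the dashed line is the KO median over all genes tested, -0.01. Of all genes 19.7% rose and 18.6% fell in KO. Mitosis (1.67) and DNA replication (1.47) have the highest KO medians, and immediate-early genes (-0.77), early estrogen-response genes (-0.76) and ATF4 genes (-0.76) the lowest.

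DNA replication genes rose as a whole. All 31 members tested rose in KO, where 19.7% of all genes rose, and their median log2 difference was 1.47, against -0.01 over all genes. Their mean level was 10.74 and 10.60 on the KO 24 h arrays, against 9.22 and 8.98 on the KO 6 h arrays. In all 31 genes both KO 24 h arrays lay above both KO 6 h arrays, where 33.0% of all genes did so. Leaving out any 1 KO array kept the count at 30 or 31.

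Uhrf1, which carries DNA methylation marks to the new strand, read 13.31 and 13.20 on the KO 24 h arrays, against 10.59 and 9.56 on the KO 6 h arrays. That was 9.06-fold higher at 24 h (3.18 ± 0.48, limma adjusted p = 0.000116), and the second KO 6 h array was the lower of its pair by about 1 log2 unit. Mcm10, an initiation factor of the replication fork, read 11.27 and 11.14 on the KO 24 h arrays, against 8.67 and 8.25 on the KO 6 h arrays. It was 6.7-fold higher (2.74 ± 0.31, adjusted p = 1.11e-05). Mcm5, a subunit of the MCM helicase that unwinds DNA, read 12.91 and 12.78 on the KO 24 h arrays, against 10.63 and 10.26 on the KO 6 h arrays (5.27-fold, 2.40 ± 0.30, adjusted p = 2.74e-05). Tk1, the thymidine kinase of S phase, read 11.40 and 11.10 on the KO 24 h arrays, against 8.48 and 8.23 on the KO 6 h arrays (7.43-fold, 2.89 ± 0.31, adjusted p = 7.59e-06), but another probe of Tk1 differed by only 0.03. The groups of these 4 genes do not overlap. For Uhrf1, Mcm10 and Tk1, which belong to the largest rises of all genes, that was a condition of being picked. Outside the list, Pclaf, a PCNA-binding factor of S phase, was among the largest rises of all genes at 11.74 and 11.69 on the KO 24 h arrays, against 8.68 and 8.22 on the KO 6 h arrays (9.63-fold, 3.27 ± 0.38, adjusted p = 1.56e-05).

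The promoters of 2 helicase genes are shown because members of this list moved together and the E2F factors are known to drive S-phase genes. The E2F words TTTGGCGC and TTTCCCGC were searched on both strands from 250 bases before to 50 bases after each annotated start. They occurred in 8 of the 31 promoter windows found for this list (25.8%), against 1.56% of 32817 windows of the same length. These 31 windows belong to 26 of the 31 members tested, as a gene can have several starts or no window. No word searched here contains another. The windows below are RefSeq sequence of build GRCm38.p6, 5′ to 3′ on the gene's strand, with the E2F word in capitals. Mcm6 (chr1:128359656-128359955, minus strand) holds the word at 2 places, and Mcm5 (chr8:75109259-75109558, plus strand) holds its reverse complement, GCGCCAAA, at -149 relative to the start.
Mcm6: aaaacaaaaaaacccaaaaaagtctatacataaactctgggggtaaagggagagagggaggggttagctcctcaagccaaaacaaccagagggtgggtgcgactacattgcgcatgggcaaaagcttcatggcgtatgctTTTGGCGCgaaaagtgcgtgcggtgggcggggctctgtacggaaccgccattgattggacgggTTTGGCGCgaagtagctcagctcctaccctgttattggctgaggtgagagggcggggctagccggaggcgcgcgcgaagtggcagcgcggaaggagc
Mcm5: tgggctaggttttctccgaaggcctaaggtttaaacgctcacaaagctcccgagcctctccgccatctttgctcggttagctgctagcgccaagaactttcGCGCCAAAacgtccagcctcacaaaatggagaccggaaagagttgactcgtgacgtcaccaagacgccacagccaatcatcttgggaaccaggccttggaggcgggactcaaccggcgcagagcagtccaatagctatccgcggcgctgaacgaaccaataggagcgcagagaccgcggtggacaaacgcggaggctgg
Mcm6, another MCM helicase subunit, read 12.24 and 12.12 on the KO 24 h arrays, against 10.41 and 10.12 on the KO 6 h arrays (1.91, adjusted p = 1.37e-05), with another probe at 0.20. It was picked for its promoter after its values were seen. A word match is a description of the window and no measure of binding.

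Mitosis genes rose as well, with 22 of 28 members tested higher and 1 lower, where 19.7% of all genes rose and 18.6% fell. Their median was 1.67. Mad2l1, a spindle checkpoint gene, was the member that fell (-0.90, limma adjusted p = 0.0072), a call that needed the second KO 6 h array. Pbk, a mitotic kinase gene, read 12.03 and 11.85 on the KO 24 h arrays, against 8.996 and 8.27 on the KO 6 h arrays, 9.92-fold higher (3.31 ± 0.40, adjusted p = 1.77e-05). Prc1, which bundles microtubules of the central spindle, read 12.23 and 12.21 on the KO 24 h arrays, against 9.63 and 8.998 on the KO 6 h arrays (7.51-fold, 2.91 ± 0.41, adjusted p = 6.48e-05). In both genes the KO 24 h arrays lay close together while the second KO 6 h array was the lowest of the 4. Anln, a scaffold of the cleavage furrow, differed by 2.64 ± 0.29 (adjusted p = 9.36e-06), with another probe at 0.41. Top2a, the topoisomerase that separates sister DNA, differed by 2.62 ± 0.33 (adjusted p = 2.59e-05), with another probe at 0.18. Members that did not pass lay between -0.06 (Cenpe) and 0.10 (Cenpf).

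Promoters of mitosis genes are known to carry the cell cycle homology region, TTTGAA, near the start, often beside a CCAAT box. Of 23 windows found for this list 18 held TTTGAA (78.3%), against 17.9% of all windows, and 18 held CCAAT (78.3%), against 37.4%. The 23 windows belong to 22 of the 28 members tested, and the shares are no measure of binding. Prc1 (chr7:80294201-80294500, plus strand, GRCm38.p6, RefSeq) is shown with both words in capitals, CCAAT at -37 and TTTGAA at -5 relative to the start. Another annotated start of Prc1 puts CCAAT at -62 and TTTGAA at -30. The window shown was picked because its TTTGAA lies nearer the start.
Prc1: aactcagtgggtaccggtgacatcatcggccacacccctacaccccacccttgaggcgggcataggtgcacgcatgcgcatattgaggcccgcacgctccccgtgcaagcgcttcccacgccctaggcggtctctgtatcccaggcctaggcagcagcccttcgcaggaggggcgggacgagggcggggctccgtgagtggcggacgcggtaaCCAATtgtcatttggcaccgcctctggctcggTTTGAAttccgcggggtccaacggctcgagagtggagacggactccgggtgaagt

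Histone genes of the replication-dependent H2A group held 8 of the 15 largest rises. H2ac24 read 14.86 and 14.65 on the KO 24 h arrays, against 11.67 and 10.86 on the KO 6 h arrays, 11.3-fold higher (3.49 ± 0.48, limma adjusted p = 5.67e-05). H2ac7 read 14.69 and 14.37 on the KO 24 h arrays, against 11.51 and 10.65 on the KO 6 h arrays (10.9-fold, 3.45 ± 0.47, adjusted p = 5.43e-05). H2ac22, H2ac20, H2ac15, H2ac12, H2ac13 and H2ac10 differed by 3.25, 2.83, 2.83, 2.82, 2.76 and 2.75. The 15 were picked among genes whose KO arrays did not overlap between the times, so the lack of overlap in these genes adds nothing. These genes are near-identical in sequence, so their probes may read the same transcripts and do not count as 8 separate observations, and another probe of H2ac20 differed by -0.10.

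**Figure D2:**
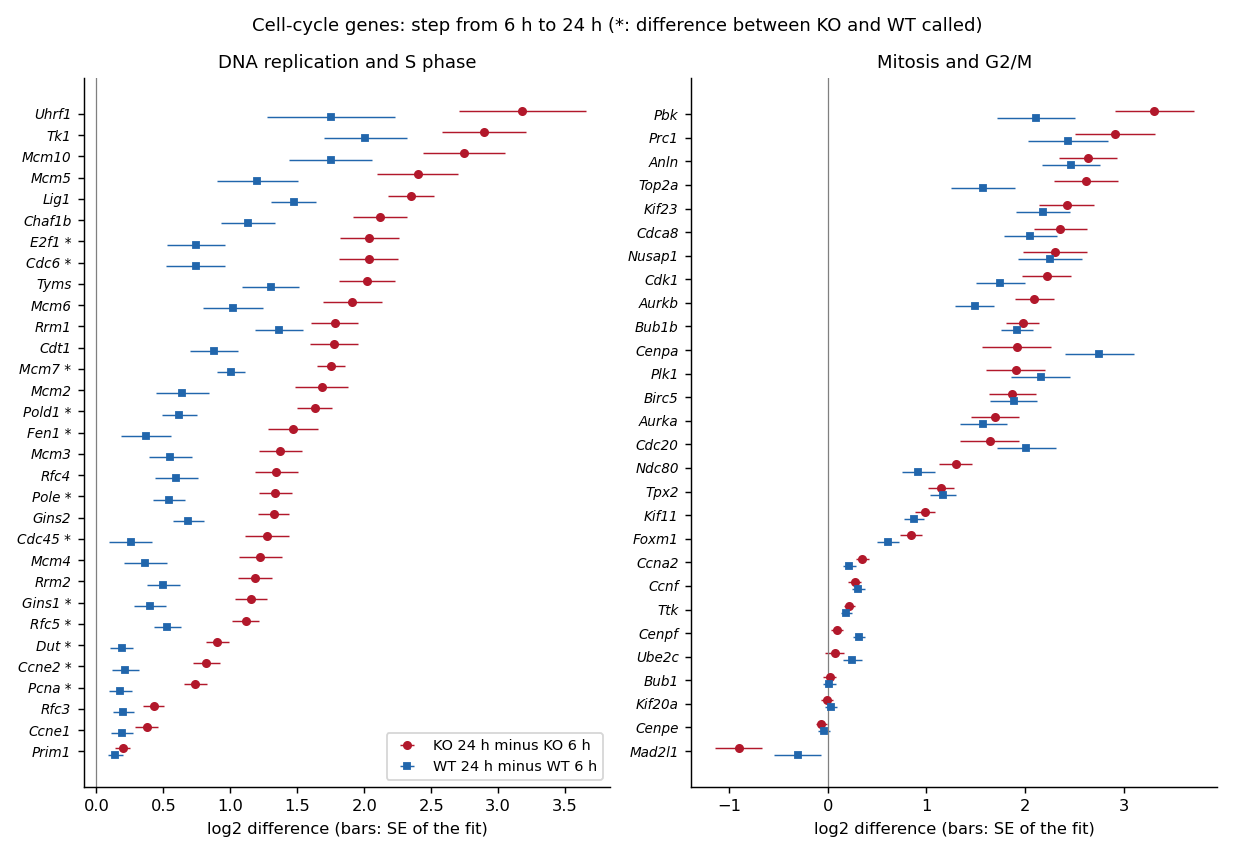
Log2 difference between 24 h and 6 h (horizontal axis) for each member tested of the DNA replication list (left) and the mitosis list (right), in KO (red circles) and WT (blue squares), with bars for 1 SE of the fit. Asterisks mark genes whose KO difference differed from the WT difference, 12 in the replication list and 0 in the mitosis list. All 31 replication genes lie right of 0 in KO.

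Immediate-early genes and their feedback inhibitors were lower at 24 h, with 25 of 34 members lower and 0 higher (18.6% of all genes fell). Their median was -0.77 and their mean level 9.56 and 9.48 on the KO 24 h arrays, against 10.33 and 10.56 on the KO 6 h arrays. Errfi1, an inhibitor of EGF receptor signalling, read 11.24 and 10.96 on the KO 24 h arrays, against 13.70 and 14.05 on the KO 6 h arrays, 6.84-fold lower (-2.77 ± 0.12, limma adjusted p = 1.3e-08). Socs3, which blocks cytokine receptor kinases, read 9.92 and 9.82 on the KO 24 h arrays, against 11.82 and 12.66 on the KO 6 h arrays (5.15-fold lower, -2.36 ± 0.19, adjusted p = 8.5e-07). For both genes the KO 24 h arrays lay far below the KO 6 h pair, whose second array was the higher. Fos, an AP-1 transcription factor gene, read 9.64 and 9.38 on the KO 24 h arrays, against 11.40 and 11.98 on the KO 6 h arrays (4.53-fold lower, -2.18 ± 0.21, adjusted p = 2.94e-06). Gadd45g, a stress and growth-arrest gene, read 12.64 and 12.37 on the KO 24 h arrays, against 14.56 and 14.81 on the KO 6 h arrays (4.52-fold lower, -2.18 ± 0.13, adjusted p = 9.86e-08). The 9 members that did not pass lay between -0.16 (Ier2) and 0.16 (Myc).

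Early estrogen-response genes fell too, 18 of 26 members, while Ccnd1 and Bmp7 rose, and the list median was -0.76. Adamts4, a protease of matrix proteoglycans, read 8.92 and 8.87 on the KO 24 h arrays, against 11.51 and 11.86 on the KO 6 h arrays, 6.95-fold lower (-2.80 ± 0.16, limma adjusted p = 9.86e-08). Klk1, a tissue kallikrein, read 10.42 and 10.61 on the KO 24 h arrays, against 12.65 and 12.52 on the KO 6 h arrays (4.2-fold lower, -2.07 ± 0.16, adjusted p = 6.71e-07). Greb1, a partner of the estrogen receptor, read 10.04 and 9.77 on the KO 24 h arrays, against 11.61 and 12.17 on the KO 6 h arrays (3.95-fold lower, -1.98 ± 0.15, adjusted p = 6.07e-07). Cdkn1a, an inhibitor of cyclin-dependent kinases, read 9.42 and 10.04 on the KO 24 h arrays, against 11.55 and 11.84 on the KO 6 h arrays (3.91-fold lower, -1.97 ± 0.16, adjusted p = 1.01e-06). No KO 24 h array reached a KO 6 h array in these 4 genes. For Adamts4, among the largest falls of all genes, that was a condition of being picked. Ccnd1, the G1 cyclin, differed by 0.79 (adjusted p = 3.54e-05).

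**Figure D3:**
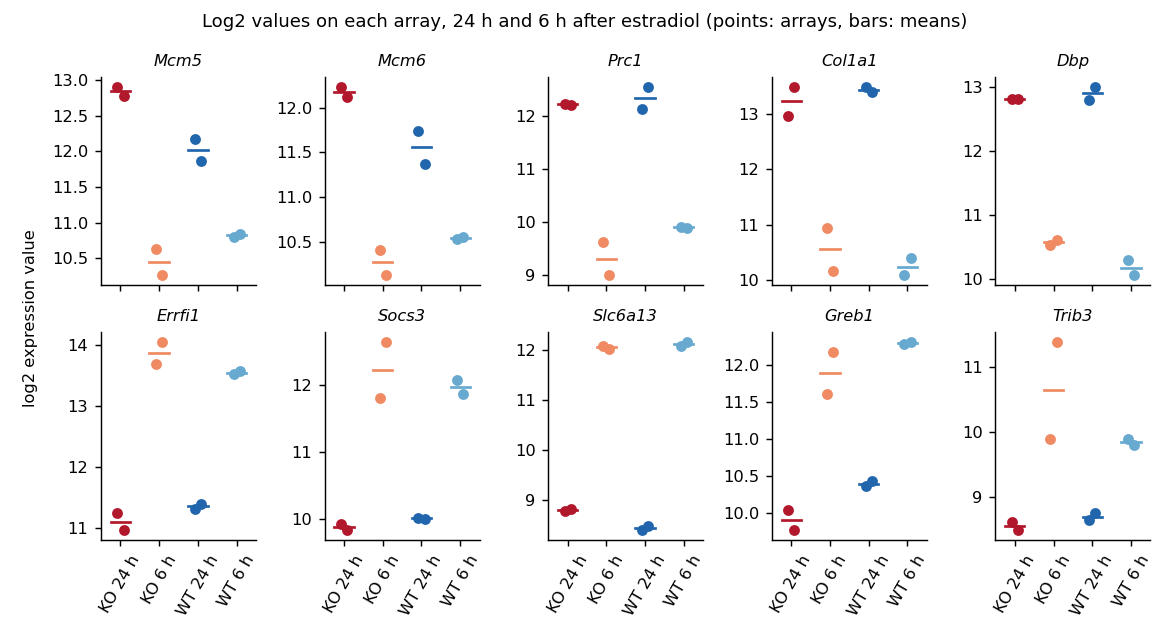
Log2 expression value (vertical axis, a scale per gene that does not start at 0) of 10 genes on each array at 24 h and 6 h, in KO (red and orange) and WT (dark and light blue). Points are arrays and bars are means of 2 arrays. Mcm5, Mcm6, Prc1, Col1a1 and Dbp are higher on both KO 24 h arrays, and Errfi1, Socs3, Slc6a13, Greb1 and Trib3 are lower. The KO 6 h arrays lie apart in Trib3 (9.90 and 11.39). For Prc1, Col1a1, Errfi1, Socs3 and Slc6a13, among the largest rises and falls, lack of overlap was a condition of being picked.

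Single genes, most of them outside the lists, showed falls as large. Slc6a13, a GABA and taurine transporter, read 8.78 and 8.82 on the KO 24 h arrays, against 12.07 and 12.02 on the KO 6 h arrays, 9.47-fold lower and the largest fall of all genes called (-3.24 ± 0.16, limma adjusted p = 2e-08). Tmem200a, a membrane protein gene, read 9.11 and 8.76 on the KO 24 h arrays, against 12.02 and 12.08 on the KO 6 h arrays (-3.11 ± 0.19, adjusted p = 1.33e-07). Col8a2, a network collagen of basement membranes, read 9.46 and 9.34 on the KO 24 h arrays, against 12.28 and 12.41 on the KO 6 h arrays (-2.94 ± 0.14, adjusted p = 1.96e-08), while another probe differed by -0.31. The arrays within each time lay close together in all 3. Phf21b (-2.64), Synpo (-2.34), Inmt (-2.33), Irak3 (-2.30) and Klk1b5 (-2.26) fell by at least 2 log2 units. Synpo encodes an actin-bundling protein, Inmt a methyltransferase of indoles and Irak3 a brake on Toll-like receptor signalling. Another probe of Synpo differed by -0.13 and another of Klk1b5 by -0.11.

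Genes of the ATF4 response, which cells use when amino acids run short or the endoplasmic reticulum (ER) is stressed, were lower in 17 of 24 members and higher in 0, with a median of -0.76. Their mean level was 10.42 and 10.40 on the KO 24 h arrays, against 10.99 and 11.48 on the KO 6 h arrays. Trib3, a pseudokinase that feeds back on ATF4, read 8.62 and 8.49 on the KO 24 h arrays, against 9.90 and 11.39 on the KO 6 h arrays (-2.09 ± 0.35, limma adjusted p = 0.000318), with another probe at -0.31. Chac1, which breaks down glutathione, read 8.80 and 8.63 on the KO 24 h arrays, against 10.06 and 12.71 on the KO 6 h arrays (-2.67 ± 0.62, adjusted p = 0.00319). The second KO 6 h array was by far the highest in both genes. Without it the differences were -1.34 for Trib3 and -1.35 for Chac1 (adjusted p = 0.00166 and 0.0319), and 12 members of the list passed. Slc7a3, a transporter of basic amino acids, read 8.49 and 8.38 on the KO 24 h arrays, against 10.004 and 10.45 on the KO 6 h arrays (-1.79 ± 0.18, adjusted p = 4.46e-06), with another probe at -0.05. Ddit3, the stress factor CHOP, read 8.75 and 9.06 on the KO 24 h arrays, against 10.52 and 10.78 on the KO 6 h arrays (-1.74 ± 0.14, adjusted p = 1.09e-06).

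The promoter of Chac1 is shown because the ATF4 list fell together and its genes are known to be bound at the composite C/EBP-ATF element, TTGCATCA. That word, on either strand, occurred in 4 of the 25 windows found for the list (16%), against 0.896% of all windows. These windows belong to 21 of the 24 members. The list was made of ATF4 response genes, so this share describes the list and is no measure of binding. In the Chac1 window (chr2:119350992-119351291, plus strand, GRCm38.p6, RefSeq) the word stands in capitals at -193 relative to the start.
Chac1: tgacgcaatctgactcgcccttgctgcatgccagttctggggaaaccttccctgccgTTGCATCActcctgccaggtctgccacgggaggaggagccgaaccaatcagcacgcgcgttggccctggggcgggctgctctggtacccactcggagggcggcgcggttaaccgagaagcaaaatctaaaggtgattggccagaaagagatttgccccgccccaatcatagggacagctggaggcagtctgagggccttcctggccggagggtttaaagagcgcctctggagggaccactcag

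Chaperones of the ER fell in 7 of 23 members (30.4%, against 18.6% of all genes) and rose in 0 (19.7% of all genes). Their median was -0.09, and it was -0.17 without the second KO 6 h array and -0.02 without the first. Herpud1, a membrane protein of ER-associated degradation, read 12.61 and 12.91 on the KO 24 h arrays, against 14.02 and 14.27 on the KO 6 h arrays (-1.38 ± 0.16, limma adjusted p = 1.14e-05). Syvn1, the ubiquitin ligase of that pathway, read 12.06 and 12.53 on the KO 24 h arrays, against 13.50 and 13.29 on the KO 6 h arrays (-1.10 ± 0.15, adjusted p = 6.83e-05). Dnajb9, an ER co-chaperone, read 10.61 and 11.15 on the KO 24 h arrays, against 12.09 and 11.78 on the KO 6 h arrays (-1.05 ± 0.17, adjusted p = 0.000202). The 24 h arrays differed in these genes, the second lying above the first but below both 6 h arrays. Creld2, an ER isomerase, read 11.02 and 12.05 on the KO 24 h arrays, against 12.84 and 12.53 on the KO 6 h arrays, and its call (-1.15 ± 0.31, adjusted p = 0.00942) was lost without the first array of either time (-0.63, adjusted p = 0.157, without the first KO 24 h array and -0.99, adjusted p = 0.0634, without the first KO 6 h array). The chaperones Hspa5 (-0.35) and Hsp90b1 (-0.27) missed the threshold. Leaving out the first KO 6 h array gave 3 members higher, and leaving out the first KO 24 h array gave 1.

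Ribosome biogenesis genes were lower in 13 of 26 members and higher in 2, Noc4l and Nhp2, with a median of -0.27. Rrp12, which exports ribosomal subunits, read 11.46 and 11.43 on the KO 24 h arrays, against 12.38 and 12.34 on the KO 6 h arrays (-0.92 ± 0.14, limma adjusted p = 0.000105). Pes1, needed for the large subunit, read 11.71 and 11.66 on the KO 24 h arrays, against 12.37 and 12.56 on the KO 6 h arrays (-0.78 ± 0.11, adjusted p = 6.32e-05). Ftsj3, a methyltransferase of ribosomal RNA, read 9.83 and 9.86 on the KO 24 h arrays, against 10.27 and 10.71 on the KO 6 h arrays (-0.64 ± 0.11, adjusted p = 0.000239), and without the second KO 6 h array its difference was -0.42. Nop58, of the methylation complex that small nucleolar RNAs guide, differed by -0.58 ± 0.15 (adjusted p = 0.00831). Its adjusted p was 0.0564 without the second KO 6 h array and 0.0608 without the first KO 24 h array. Leaving out any 1 KO array left 0 or 1 members higher.

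Energy metabolism genes moved the other way. The mitochondrial respiratory chain rose in 19 of 24 members and fell in 0, with a median of 0.41 and mean levels of 12.33 and 12.31 on the KO 24 h arrays, against 11.94 and 11.85 on the KO 6 h arrays. Ndufa4, a subunit of the cytochrome c oxidase step, read 14.004 and 13.93 on the KO 24 h arrays, against 13.23 and 13.14 on the KO 6 h arrays (0.78 ± 0.11, limma adjusted p = 7.17e-05). Sdhd, which anchors succinate dehydrogenase, read 9.78 and 9.86 on the KO 24 h arrays, against 9.04 and 9.03 on the KO 6 h arrays (0.78 ± 0.11, adjusted p = 5.1e-05). Sdhb, its iron-sulfur subunit, differed by 0.68 ± 0.09 (adjusted p = 3.68e-05), with another probe at 0.09. The changes were under 2-fold with the groups apart. Atp5a1, of the ATP synthase, differed by 0.79 ± 0.11 (adjusted p = 6.02e-05), but another probe read the opposite sign (-0.48) and the mean of its probes did not pass (0.16, adjusted p = 0.0713).

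Glycolysis genes rose in 8 of 14 members, and Aldoc fell, where 19.7% of all genes rose and 18.6% fell. Pfkm, the muscle-type phosphofructokinase, read 11.05 and 11.004 on the KO 24 h arrays, against 9.51 and 9.63 on the KO 6 h arrays (2.75-fold, 1.46 ± 0.09, limma adjusted p = 1.07e-07). Tpi1, the triose phosphate isomerase, read 13.48 and 13.48 on the KO 24 h arrays, against 12.64 and 12.42 on the KO 6 h arrays (0.95 ± 0.11, adjusted p = 1.32e-05). Pfkl, the liver-type phosphofructokinase, and Pgk1, the phosphoglycerate kinase, differed by 0.93 and 0.71. Other probes of these 4 genes differed by 0.14, 0.10, 0.12 and 0.16. The glucose transporters Slc2a1 (-0.08) and Slc2a3 (-0.34) missed the threshold. Leaving out the first KO 6 h array gave 3 members lower.

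Cholesterol synthesis genes rose in 9 of 16 members and fell in 0, with a median of 0.41 that was 0.25 without the second KO 6 h array. Fdps, which makes farnesyl pyrophosphate, read 13.11 and 13.11 on the KO 24 h arrays, against 12.05 and 11.35 on the KO 6 h arrays (1.41 ± 0.32, limma adjusted p = 0.0029). Ebp, a sterol isomerase, read 10.81 and 10.89 on the KO 24 h arrays, against 9.92 and 9.65 on the KO 6 h arrays (1.07 ± 0.10, adjusted p = 1.87e-06). Lss, the lanosterol synthase, read 10.76 and 10.79 on the KO 24 h arrays, against 10.14 and 9.66 on the KO 6 h arrays (0.88 ± 0.14, adjusted p = 0.000169), with another probe at -0.01. Mvd, of the mevalonate pathway, differed by 0.84 ± 0.11 (adjusted p = 2.92e-05). The second KO 6 h array was the lowest of the 4 KO arrays in each. The sterol element CACCCCAC occurred in 0 of the 17 windows found for 14 of the 16 members, against 2.87% of all windows.

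Proteasome subunit genes rose in 8 of 22 members and fell in 0, where 19.7% of all genes rose and 18.6% fell. Their median was 0.18 (0.10 without the second KO 6 h array). Only 1 member passed without the second KO 6 h array and 1 without the second KO 24 h array. Psmc3, an ATPase of the regulatory particle, read 12.13 and 12.11 on the KO 24 h arrays, against 11.73 and 11.57 on the KO 6 h arrays (0.47 ± 0.10, limma adjusted p = 0.0018).

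Fibrillar collagen and matrix genes rose strongly within a list of mixed direction, 13 of 27 members higher and 5 lower. Of all genes 19.7% rose and 18.6% fell, so the count of falls lay near that of all genes. Col1a1, the main chain of type I collagen, read 12.96 and 13.50 on the KO 24 h arrays, against 10.95 and 10.16 on the KO 6 h arrays, 6.4-fold higher (2.68 ± 0.50, limma adjusted p = 0.000675). Col1a2, its partner chain, read 10.94 and 11.31 on the KO 24 h arrays, against 9.33 and 9.12 on the KO 6 h arrays (3.73-fold, 1.90 ± 0.30, adjusted p = 0.000197). Col3a1, of type III collagen, read 11.72 and 12.04 on the KO 24 h arrays, against 9.87 and 9.75 on the KO 6 h arrays (4.2-fold, 2.07 ± 0.34, adjusted p = 0.000234), with another probe at 0.29. Lum, a proteoglycan that spaces collagen fibrils, read 12.81 and 12.99 on the KO 24 h arrays, against 11.06 and 11.02 on the KO 6 h arrays (3.62-fold, 1.86 ± 0.19, adjusted p = 4.35e-06). The groups stood over 1 log2 unit apart in all 4 genes, and in the collagens the second KO 24 h array was the highest. Thbs2 (-1.18), Dcn (-0.53), Spon1 (-0.45), Thbs1 (-0.40) and Lama2 (-0.29) fell. The list median of 0.30 was 0.18 without the second KO 6 h array, 0.19 without the second KO 24 h array and 0.45 without the first KO 6 h array, and 3 members fell without the second KO 24 h array.

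Of 13 enzymes that fold and cross-link collagen, 4 were higher and 3 lower, not far above the 19.7% and 18.6% of all genes. Their median was -0.01 (-0.08 to 0.06 with 1 KO array left out). Pcolce, which helps cut procollagen, read 9.88 and 10.01 on the KO 24 h arrays, against 8.58 and 8.74 on the KO 6 h arrays (1.29 ± 0.17, limma adjusted p = 3.62e-05). Crtap, of the prolyl 3-hydroxylation complex, read 11.25 and 11.31 on the KO 24 h arrays, against 10.40 and 10.30 on the KO 6 h arrays (0.93 ± 0.13, adjusted p = 4.82e-05). P4ha2, a prolyl 4-hydroxylase, read 10.50 and 10.93 on the KO 24 h arrays, against 11.51 and 11.67 on the KO 6 h arrays, lower by 24 h (-0.88 ± 0.22, adjusted p = 0.00576), with another probe at -0.06 and an adjusted p of 0.078 without the first KO 24 h array. Without that array 0 members fell, and without the first KO 6 h array 1 did. Loxl1, a lysyl oxidase, read 12.16 and 12.27 on the KO 24 h arrays, against 11.70 and 11.42 on the KO 6 h arrays (0.66 ± 0.23, adjusted p = 0.034). Its call was lost without the second KO 6 h array (0.52, adjusted p = 0.192), the first KO 24 h array (0.71, adjusted p = 0.087) and the second KO 24 h array (0.61, adjusted p = 0.146).

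Late secretory genes of the estrogen response were higher in 9 of 25 members and lower in 3, where 19.7% of all genes rose and 18.6% fell. Their median was 0.22. Car12, a carbonic anhydrase of the cell surface, read 12.48 and 12.42 on the KO 24 h arrays, against 11.07 and 10.11 on the KO 6 h arrays (3.63-fold, 1.86 ± 0.42, limma adjusted p = 0.00297). Car2, a carbonic anhydrase of the cytosol, read 12.67 and 12.52 on the KO 24 h arrays, against 10.95 and 10.54 on the KO 6 h arrays (3.61-fold, 1.85 ± 0.22, adjusted p = 2e-05). Ltf, the iron-binding lactoferrin, read 14.10 and 14.12 on the KO 24 h arrays, against 12.77 and 12.95 on the KO 6 h arrays (2.37-fold, 1.24 ± 0.31, adjusted p = 0.00519). Each rose with no overlap between the times. Lyz1, a lysozyme, read 11.89 and 11.98 on the KO 24 h arrays, against 13.45 and 12.75 on the KO 6 h arrays, lower by 24 h (-1.17 ± 0.37, adjusted p = 0.0231), but another probe differed by 0.07. The call of Lyz1 was lost without the first KO 6 h array (-0.82, adjusted p = 0.183), the first KO 24 h array (-1.13, adjusted p = 0.10) and the second KO 24 h array (-1.21, adjusted p = 0.0762). Without the second KO 24 h array 1 member of the list fell.

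Among water and ion transport genes 8 of 21 fell and 4 rose, where 18.6% of all genes fell and 19.7% rose. The count of rises was thus near that of all genes, and it was lower with the first KO 24 h array left out. Clca1, a secreted regulator of chloride conductance, read 13.79 and 13.44 on the KO 24 h arrays, against 11.09 and 11.61 on the KO 6 h arrays (4.82-fold higher, 2.27 ± 0.35, limma adjusted p = 0.000144). Atp12a, a proton-potassium pump, read 8.67 and 8.58 on the KO 24 h arrays, against 10.10 and 9.93 on the KO 6 h arrays (-1.40 ± 0.18, adjusted p = 3.38e-05). Scnn1b, a subunit of the epithelial sodium channel, read 9.06 and 9.04 on the KO 24 h arrays, against 10.53 and 10.25 on the KO 6 h arrays (-1.34 ± 0.13, adjusted p = 2.94e-06). Clca1 was higher on both KO 24 h arrays, and the pump and channel genes were lower on both. Kcnk5, a potassium channel, differed by -0.75 ± 0.09 (adjusted p = 1.43e-05).

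Nuclear receptor genes were higher in 8 of 19 members and lower in 3, where 19.7% of all genes rose and 18.6% fell. Esr1, the estrogen receptor through which E2 acts, read 11.33 and 11.59 on the KO 24 h arrays, against 10.37 and 10.12 on the KO 6 h arrays (1.21 ± 0.17, limma adjusted p = 8.42e-05), with another probe at -0.07 and a difference of 0.45 for the mean of its probes. Pgr, the progesterone receptor, read 9.98 and 10.12 on the KO 24 h arrays, against 10.83 and 10.70 on the KO 6 h arrays, lower by 24 h (-0.72 ± 0.14, adjusted p = 0.000946). Nr2f2, the stromal receptor COUP-TFII, read 10.84 and 10.75 on the KO 24 h arrays, against 10.18 and 10.12 on the KO 6 h arrays (0.65 ± 0.09, adjusted p = 9.31e-05). Esr1 and Pgr thus moved in opposite directions on the probes taken for them, which the other Esr1 probe (-0.07) did not show. With any array but the first KO 6 h array left out, 1 member fell.

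Clock genes were split, 5 of 14 higher and 6 lower, where 19.7% of all genes rose and 18.6% fell. Dbp, a clock output factor, read 12.82 and 12.81 on the KO 24 h arrays, against 10.53 and 10.62 on the KO 6 h arrays, 4.72-fold higher (2.24 ± 0.22, limma adjusted p = 3.91e-06). Tef, a related factor, differed by 0.81 ± 0.16 (adjusted p = 0.000841), with another probe at 0.06. Per2, a repressor of the loop, read 11.45 and 11.41 on the KO 24 h arrays, against 12.19 and 12.63 on the KO 6 h arrays (-0.98 ± 0.13, adjusted p = 3.22e-05), with another probe at -0.10. Arntl, the activator BMAL1, read 8.55 and 8.74 on the KO 24 h arrays, against 9.64 and 9.19 on the KO 6 h arrays (-0.77 ± 0.11, adjusted p = 9.46e-05). Dbp was far higher on both KO 24 h arrays, and Per2 and Arntl were lower on both. Without the second KO 6 h array 3 members rose. The sources used here do not state the clock hour of collection.

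Of 26 growth-restraint genes, 6 rose and 6 fell, shares close to the 19.7% and 18.6% of all genes. Mxd4, which opposes MYC, read 11.79 and 11.99 on the KO 24 h arrays, against 10.12 and 10.33 on the KO 6 h arrays (3.17-fold, 1.66 ± 0.16, limma adjusted p = 3.75e-06), with another probe at 0.30. Cdkn1c, the cyclin-dependent kinase inhibitor p57, read 11.25 and 11.24 on the KO 24 h arrays, against 12.51 and 12.50 on the KO 6 h arrays (2.4-fold lower, -1.26 ± 0.14, adjusted p = 9.53e-06). Pdk4, which shuts off pyruvate entry to mitochondria, read 8.55 and 8.51 on the KO 24 h arrays, against 9.42 and 10.18 on the KO 6 h arrays (2.42-fold lower, -1.27 ± 0.20, adjusted p = 0.000148). Txnip, which limits glucose uptake, differed by -1.002 ± 0.23 (adjusted p = 0.00335), and without the second KO 6 h array by -0.66 (adjusted p = 0.0542). Mxd4 stood higher on both KO 24 h arrays and the other 3 lower.

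Against 19.7% of all genes that rose and 18.6% that fell, Wnt pathway genes were higher in 8 of 26 members and lower in 9. These counts were 4 higher and 5 lower without the second KO 24 h array, and the same without the first at 6 h. The largest differences were falls. Axin2, a target and inhibitor of the pathway, read 10.64 and 10.56 on the KO 24 h arrays, against 11.96 and 12.33 on the KO 6 h arrays (2.92-fold lower, -1.54 ± 0.14, limma adjusted p = 1.8e-06). Wnt4, a ligand of the uterine stroma, read 8.66 and 8.60 on the KO 24 h arrays, against 9.62 and 10.38 on the KO 6 h arrays (2.59-fold lower, -1.37 ± 0.20, adjusted p = 7.74e-05). Wnt7a, the epithelial ligand, read 10.20 and 10.14 on the KO 24 h arrays, against 11.65 and 11.30 on the KO 6 h arrays (2.47-fold lower, -1.31 ± 0.12, adjusted p = 2.83e-06). The receptor Fzd2 rose (0.60 ± 0.10, adjusted p = 0.00022).

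Hypoxia and vessel genes fell in 9 of 19 members and rose in 4, where 18.6% of all genes fell and 19.7% rose. The count of rises was thus near that of all genes, and it was lower with either KO 24 h array left out. The list median was -0.21 (-0.14 without the second KO 24 h array). Vegfa, the main growth factor of vessels and their permeability, read 11.82 and 11.85 on the KO 24 h arrays, against 12.88 and 13.36 on the KO 6 h arrays (2.44-fold lower, -1.28 ± 0.12, limma adjusted p = 3.31e-06), with another probe at -0.08. Nrp1, a co-receptor of VEGF, read 11.06 and 11.21 on the KO 24 h arrays, against 12.66 and 12.24 on the KO 6 h arrays (2.49-fold lower, -1.32 ± 0.14, adjusted p = 7e-06). Pgf, placental growth factor, read 8.31 and 8.25 on the KO 24 h arrays, against 8.87 and 9.64 on the KO 6 h arrays (-0.97 ± 0.16, adjusted p = 0.000296) and differed by -0.59 without the second KO 6 h array. Ndrg1, a hypoxia-induced gene, differed by -0.96 ± 0.17 (adjusted p = 0.00054). All 4 were lower on both KO 24 h arrays.

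BMP and activin genes fell in 7 of 22 members and rose in 2, where 18.6% of all genes fell and 19.7% rose. The count of falls was lower with the first KO 24 h array left out. Inhba, the activin A subunit, read 8.85 and 8.91 on the KO 24 h arrays, against 11.09 and 10.17 on the KO 6 h arrays (3.35-fold lower, -1.74 ± 0.20, limma adjusted p = 1.49e-05). Tgfbi, a matrix protein that TGF-beta induces, read 12.03 and 11.56 on the KO 24 h arrays, against 13.40 and 13.63 on the KO 6 h arrays (3.29-fold lower, -1.72 ± 0.20, adjusted p = 1.27e-05). Fstl1, a secreted relative of follistatin, read 10.85 and 11.16 on the KO 24 h arrays, against 10.13 and 9.84 on the KO 6 h arrays (1.02 ± 0.14, adjusted p = 4.96e-05). Tgfb2, a TGF-beta ligand, differed by -0.70 ± 0.11 (adjusted p = 0.000225). Fstl1 rose while the ligand genes Inhba and Tgfb2 fell.

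In the axis of progesterone and Indian hedgehog, 6 of 18 members fell and 2 rose, where 18.6% of all genes fell and 19.7% rose. Fewer members fell without the second KO 24 h array, and more rose without the first KO 6 h array. Smo, the hedgehog signal transducer, read 10.61 and 10.63 on the KO 24 h arrays, against 9.99 and 9.77 on the KO 6 h arrays (0.74 ± 0.07, limma adjusted p = 2.94e-06), with another probe at 0.03. Ihh, the ligand made by the epithelium, read 8.17 and 8.06 on the KO 24 h arrays, against 8.87 and 8.53 on the KO 6 h arrays (-0.58 ± 0.11, adjusted p = 0.000547). Lrp2, an endocytic receptor, read 8.40 and 8.47 on the KO 24 h arrays, against 8.72 and 9.99 on the KO 6 h arrays (-0.92 ± 0.32, adjusted p = 0.0376), and its value rests on 1 array: without the second KO 6 h array it was -0.28 (adjusted p = 0.493). Without the first or the second KO 24 h array Lrp2 also missed the threshold (adjusted p = 0.137 and 0.109), without the first KO 6 h array it was -1.55, and another probe differed by -0.09.

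Conjugation enzyme genes rose in 12 of 27 members and fell in 7, where 19.7% of all genes rose and 18.6% fell. The count of falls was lower with the second KO 24 h array left out. Gstt3, a glutathione transferase, read 10.73 and 10.62 on the KO 24 h arrays, against 9.06 and 9.25 on the KO 6 h arrays (2.86-fold, 1.52 ± 0.10, limma adjusted p = 2.58e-07). Gpx7, a peroxidase of the ER, read 10.03 and 10.21 on the KO 24 h arrays, against 9.001 and 8.95 on the KO 6 h arrays (1.14 ± 0.10, adjusted p = 2.14e-06). Gpx3, the secreted glutathione peroxidase, read 10.57 and 10.75 on the KO 24 h arrays, against 12.09 and 12.56 on the KO 6 h arrays (3.17-fold lower, -1.66 ± 0.15, adjusted p = 1.85e-06). Inmt read 11.88 and 11.72 on the KO 24 h arrays, against 13.76 and 14.50 on the KO 6 h arrays (5.02-fold lower, -2.33 ± 0.25, adjusted p = 7.45e-06). The transferase Gstt3 was higher on both KO 24 h arrays while Inmt, which methylates indoles, was lower on both. For Inmt, among the largest falls of all genes, that was a condition of being picked.

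Imprinted growth genes showed 4 of 17 members higher and 3 lower, shares close to the 19.7% and 18.6% of all genes. Rasgrf1, a Ras exchange factor, read 9.10 and 8.70 on the KO 24 h arrays, against 11.16 and 10.30 on the KO 6 h arrays (3.55-fold lower, -1.83 ± 0.26, limma adjusted p = 8e-05), with another probe at -0.13. Ndn, necdin, and Igf2r, the receptor that clears IGF2, differed by 0.75 and 0.60 (adjusted p = 3.6e-05 and 1.45e-05).

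Chemokine and cytokine genes fell in 15 of 28 members and rose in 0, where 18.6% of all genes fell and 19.7% rose. Their median was -0.47. Ccl21a, which draws lymphocytes and dendritic cells along lymph vessels, read 10.67 and 9.96 on the KO 24 h arrays, against 12.65 and 12.87 on the KO 6 h arrays (5.44-fold lower, -2.44 ± 0.21, limma adjusted p = 1.62e-06). The near-identical Ccl21c and LOC100041504 differed by -2.43 and -2.34, and their probes may read the same transcripts. Ccl4, an attractant of monocytes and T cells, read 8.45 and 8.41 on the KO 24 h arrays, against 11.09 and 10.13 on the KO 6 h arrays (4.53-fold lower, -2.18 ± 0.24, adjusted p = 8.89e-06), with another probe at -0.45. Ccl12 read 9.32 and 9.37 on the KO 24 h arrays, against 10.73 and 11.14 on the KO 6 h arrays (3.01-fold lower, -1.59 ± 0.17, adjusted p = 6.41e-06), and Ccl7 differed by -1.35 ± 0.13 (adjusted p = 2.68e-06), both monocyte attractants. No KO 24 h array reached a KO 6 h array in any of these genes. For those among the 15 largest falls, such as Ccl21a and Ccl21c, that was a condition of being picked.

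Macrophage markers were lower beside the chemokines. Their mean level over 14 markers was 9.06 and 9.22 on the KO 24 h arrays, against 9.91 and 9.74 on the KO 6 h arrays. Where 18.6% of all genes fell and 19.7% rose, 7 of 14 fell and 0 rose. That count was 2 without the first KO 6 h array, 0 without the first KO 24 h array and 4 without the second KO 24 h array. Fcer1g, an Fc receptor chain, read 9.72 and 9.97 on the KO 24 h arrays, against 11.18 and 10.63 on the KO 6 h arrays (-1.06 ± 0.31, limma adjusted p = 0.0143). Its adjusted p was 0.122 without the first KO 6 h array and 0.0968 without the first KO 24 h array. The part of macrophage content in the chemokine falls was not tested. Lymphocyte markers fell in 4 of 8 members, Cd3g (-0.66), Cd3d (-0.56), Cd3e (-0.54) and Nkg7 (-0.50), with mean levels of 8.30 and 8.27 on the KO 24 h arrays, against 8.56 and 8.60 on the KO 6 h arrays. Those levels lie near the array median of 8.20, and 1 member passed without the second KO 6 h array, 1 without the second KO 24 h array, 2 without the first KO 24 h array and 3 without the first KO 6 h array.

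Interferon-stimulated genes showed few changes in KO: 1 of 23 rose, Ifit2 (0.46), and 1 fell, Mx1 (-0.30), with a median of -0.04 (-0.08 to 0.05 with 1 KO array left out). Oasl2 read 11.15 and 11.56 on the KO 24 h arrays, against 10.42 and 10.92 on the KO 6 h arrays, with values that did not pass (0.69 ± 0.37, limma adjusted p = 0.176). Gbp3 read 10.04 and 10.33 on the KO 24 h arrays, against 9.39 and 9.65 on the KO 6 h arrays (0.67 ± 0.36, adjusted p = 0.18). The rise of Ifit2 was lost without any 1 KO array.

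Uterus markers, 11 tested with Hoxa11, Hoxd10, Hand2 and Msx1 among them, lay above the array median, with mean levels of 9.72 and 9.76 on the KO 24 h arrays, against 9.89 and 9.78 on the KO 6 h arrays. Epithelial markers rose in 7 of 16 members (4 without the first KO 6 h array) and fell in 2, Cldn4 (-0.93) and Wnt7a. Krt19, a simple-epithelium keratin, read 11.37 and 11.34 on the KO 24 h arrays, against 10.08 and 10.003 on the KO 6 h arrays (2.49-fold, 1.31 ± 0.07, limma adjusted p = 5.62e-08). Their mean level was 10.57 and 10.48 on the KO 24 h arrays, against 10.28 and 10.36 on the KO 6 h arrays. Smooth muscle markers averaged 11.39 and 11.47 on the KO 24 h arrays, against 11.52 and 11.43 on the KO 6 h arrays, with 0 of 14 higher and 2 lower (1 with any KO array but the second KO 6 h array left out). Fibroblast markers were higher in 5 of 13 members and lower in 4, endothelial markers higher in 2 of 14 and lower in 5. Beside these marker counts, 19.7% of all genes rose and 18.6% fell. Whether cell mixture had a part in the gene groups above was not tested.

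Fat, blood, mesothelial, granulocyte and ovary markers are given beside the 19.7% of all genes that rose and the 18.6% that fell. The shares of mesothelial markers that rose (25%) and of granulocyte and erythroid markers that fell (16.7% each) were near these. Adipocyte markers fell in 1 of 11 members, in 8 without the first KO 6 h array and in 0 without any other KO array, and Adipoq read 9.10 and 9.86 on the KO 24 h arrays, against 9.03 and 11.47 on the KO 6 h arrays. Erythroid markers fell in 1 of 6 members (Hba-a1, -1.13, limma adjusted p = 0.047), a call lost with any KO array but the first KO 6 h array left out, without the probe filter (adjusted p = 0.056), with the mean of the kept probes (0.054), with robust empirical Bayes (0.10) and with array weights (0.0709). Without the first KO 6 h array 3 erythroid markers fell. Granulocyte markers fell in 2 of 12 members, Il1r2 and Prg2, mesothelial markers rose in 2 of 8 (1 without the first KO 6 h or the second KO 24 h array) and ovary and oviduct markers changed in 0 of 6. The adipocyte mean of 10.68 on the second KO 6 h array stands beside its low values in cholesterol synthesis and high values in ATF4 genes, and its part in them was not tested.

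The WT uterus made the same step to a large degree. In WT, 2841 genes rose (19.3%) and 2797 fell (19.0%), 350 (2.37%) and 218 (1.48%) of them at least 2-fold, and the arrays of the times did not overlap in 72.1% of genes. Each count of list members in WT below is to be read against the 19.3% and 19.0%. Across the 14737 genes the KO and WT differences correlated at r = 0.831 (Spearman 0.759), a description over genes, which are no independent replicates. Genes called in both genotypes numbered 4135, of which 2090 rose in both, 2001 fell in both and 44 went opposite ways. The genes called in the same direction were 72.5% of the KO calls and 72.6% of the WT calls.

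**Figure D4:**
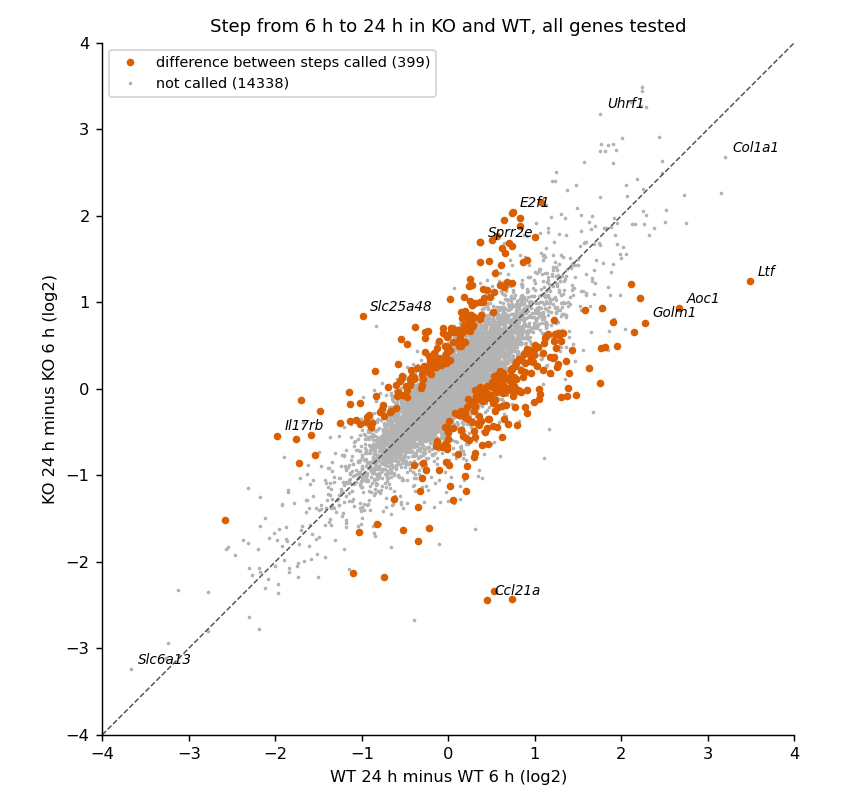
Log2 difference between 24 h and 6 h in KO (vertical axis) against WT (horizontal axis) for each of 14737 genes. Orange points are the 399 genes whose KO difference differed from the WT difference, and the dashed line marks equal differences. Most genes lie near that line, while Ccl21a (-2.44 in KO, 0.45 in WT) and Ltf (1.24 in KO, 3.49 in WT) lie far from it.

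The KO difference differed from the WT difference in 399 genes (2.71%), 184 with the higher difference in KO (1.25%) and 215 with the lower (1.46%), at least 2-fold in 25 (0.170%) and 45 (0.305%). In 109 of them both genotypes moved the same way and KO more, in 126 WT more, and in 164 the 2 differences had opposite signs. The count depended on single arrays, from 74 (first WT 6 h array left out) to 671 (first KO 6 h array left out), with 110 to 208 for each other array. Of 58 such genes looked at singly, most of them chosen after their values were seen, 16 kept their call with any 1 array left out and under every alternative that tested them: Aoc1, Arg1, Ccl21a, Ccl21c, Cxcl17, Egln3, Fosl2, Ihh, Il17rb, LOC100041504, Lgr5, Pglyrp1, Pigr, Sprr2d, Sprr2e and Zfp367. Directions between genotypes hold for the labels, which the Egr1 probe did not check. Each count of list members called in the KO minus WT difference below is to be read against the 1.25% and 1.46% of all genes.

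DNA replication genes rose more in KO than in WT in 12 of 31 members and less in 0. Of all genes 1.25% had the higher difference in KO and 1.46% the lower. The list median was 1.47 in KO and 0.62 in WT, where 22 members rose. Mean levels were 10.74 and 10.60 on the KO 24 h arrays, against 9.22 and 8.98 on the KO 6 h arrays. In WT they were 10.20 and 9.96 on the 24 h arrays, against 9.31 and 9.33 on the 6 h arrays. E2f1, the transcription factor of S-phase entry, read 10.89 and 10.78 on the KO 24 h arrays and 8.999 and 8.59 on the KO 6 h arrays, with 10.07 and 9.63 on the WT 24 h arrays and 9.02 and 9.18 on the WT 6 h arrays. Its KO minus WT difference was 1.29 ± 0.31 (limma adjusted p = 0.0411). Pcna, the sliding clamp of the fork, read 9.58 and 9.46 at 24 h and 8.81 and 8.76 at 6 h in KO, and 8.999 and 8.83 at 24 h and 8.71 and 8.75 at 6 h in WT (0.56 ± 0.12, adjusted p = 0.029). For both genes the KO 24 h arrays were the highest of the 8. The call of E2f1 was lost without any 1 array but the first KO 6 h array (adjusted p = 0.053 to 0.182), and that of Pcna without any 1 of 6 arrays (0.0602 to 0.133). The list count was 14 without the first KO 6 h array, 7 without the first WT 24 h array, 3 without the second KO 6 h array and 1 without any other. The list median of the KO minus WT difference stayed between 0.71 and 0.98 when any 1 array was left out. In the fit of only the 6 h and 24 h groups 25 members passed. Without the 0 h arrays 22 did.

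Zfp367, a zinc-finger factor gene outside the lists, showed the same pattern and kept its call throughout. It read 10.22 and 10.09 on the KO 24 h arrays, against 8.32 and 8.09 on the KO 6 h arrays, and in WT 9.32 and 9.06 on the WT 24 h arrays, against 8.55 and 8.54 on the WT 6 h arrays. The KO minus WT difference was 1.30 ± 0.14 (limma adjusted p = 0.000407), with another probe at 0.11. Ung, which removes uracil from DNA (1.32, adjusted p = 0.0285, another probe 0.15), and Cdc6, a loader of the MCM helicase (1.29, adjusted p = 0.0423, another probe -0.12), were called too. Both lost the call without the second KO 6 h array (1.10, adjusted p = 0.101, for Ung and 1.07, adjusted p = 0.153, for Cdc6) and without any 1 of 5 others each. Of the mitosis genes 0 of 28 passed this test in either direction, where 2.71% of all genes did. Their median differences were 1.67 in KO and 1.53 in WT.

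**Figure D5:**
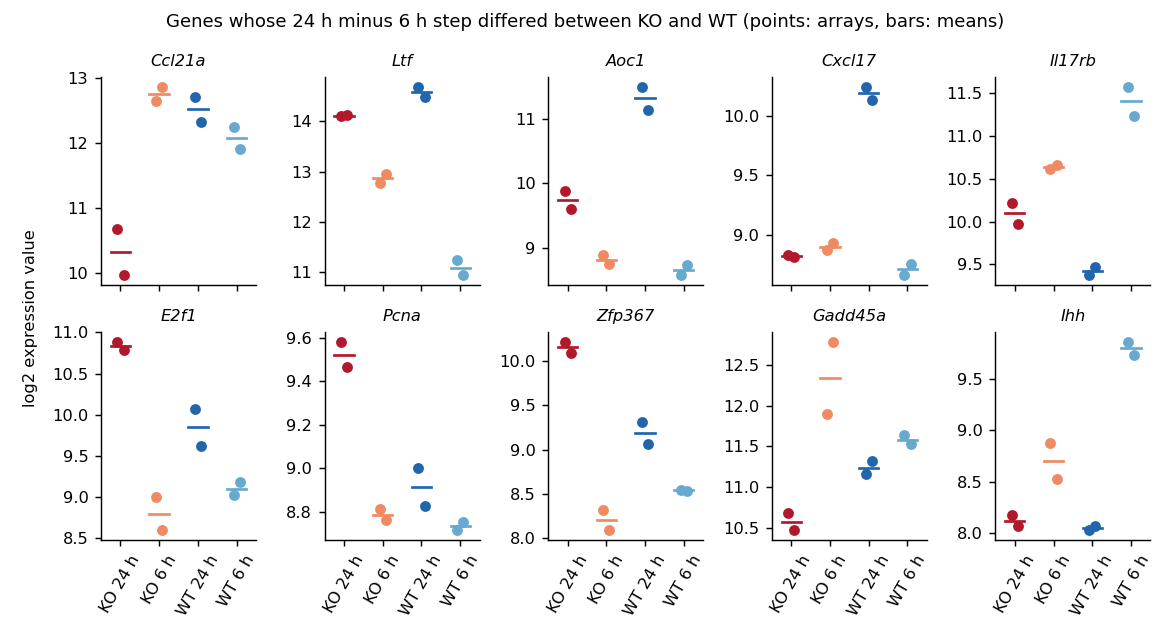
Log2 expression value (vertical axis, a scale per gene that does not start at 0) of 10 genes whose KO difference differed from the WT difference, on each array at 24 h and 6 h. Points are arrays and bars are means of 2 arrays. Ccl21a is low only on the KO 24 h arrays (10.67 and 9.96), Cxcl17 high only on the WT 24 h arrays (10.24 and 10.13), and Ihh highest on the WT 6 h arrays (9.86 and 9.74).

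The largest differences in the other direction included the chemokine gene Ccl21a. Ccl21a read 10.67 and 9.96 on the KO 24 h arrays, against 12.65 and 12.87 on the KO 6 h arrays, while in WT it read 12.71 and 12.33 on the WT 24 h arrays, against 12.24 and 11.91 on the WT 6 h arrays. It fell in KO and did not pass in WT (0.45, limma adjusted p = 0.122), and the KO minus WT difference was -2.89 ± 0.30 (adjusted p = 0.000392). Cxcl17, a mucosal chemokine, read 8.84 and 8.82 on the KO 24 h arrays, against 8.88 and 8.93 on the KO 6 h arrays, and in WT 10.24 and 10.13 on the WT 24 h arrays, against 8.66 and 8.76 on the WT 6 h arrays (-1.55 ± 0.15, adjusted p = 0.00037). Pglyrp1, which binds bacterial peptidoglycan, read 10.67 and 10.26 on the KO 24 h arrays, against 10.63 and 10.48 on the KO 6 h arrays, and in WT 11.23 and 11.14 on the WT 24 h arrays, against 9.85 and 9.79 on the WT 6 h arrays (-1.45 ± 0.21, adjusted p = 0.00392), with another probe at 0.03. Both were higher at 24 h on the WT arrays, while in KO the times did not differ past the threshold (-0.08 and -0.09). Macrophage markers, which fell in 7 of 14 members in KO, had 0 called in either direction in WT. In the KO minus WT difference 0 were called, where 2.71% of all genes were. Yet all 14 had the lower difference in KO (-1.42 to -0.41, median -0.69), so the genotypes are not shown to be alike in these genes. Interferon-stimulated genes rose in 11 of 23 members in WT, where 19.3% of all genes rose. Only Mx1 passed the test of the difference (-0.42, limma adjusted p = 0.0324), a call lost without any 1 of 7 of the 8 arrays.

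Of 25 late secretory genes, 3 (Ltf, Pigr and Sprr2d) had the lower difference in KO, 0 the higher and 22 did not pass. Of all genes 1.46% had the lower difference in KO and 1.25% the higher. Ltf read 14.10 and 14.12 on the KO 24 h arrays, against 12.77 and 12.95 on the KO 6 h arrays, and in WT 14.69 and 14.48 on the WT 24 h arrays, against 11.25 and 10.95 on the WT 6 h arrays. It rose in both genotypes, more in WT (-2.25 ± 0.44, limma adjusted p = 0.0165), with a KO 6 h level above the WT 6 h level and a call lost without any 1 of 6 arrays (adjusted p = 0.0526 to 0.0833). Pigr, which carries antibodies across epithelium, read 8.17 and 8.29 on the KO 24 h arrays, against 8.08 and 8.03 on the KO 6 h arrays, and in WT 9.76 and 9.40 on the WT 24 h arrays, against 8.23 and 8.13 on the WT 6 h arrays (-1.22 ± 0.19, adjusted p = 0.00648). All but the WT 24 h values of Pigr lay near the array median of 8.20. Sprr2d, a small proline-rich protein, read 9.58 and 9.62 on the KO 24 h arrays, against 8.63 and 8.69 on the KO 6 h arrays, and in WT 10.13 and 10.25 on the WT 24 h arrays, against 8.44 and 8.38 on the WT 6 h arrays (-0.84 ± 0.14, adjusted p = 0.00761). Its relative Sprr2e, not on the list, went the other way, at 11.09 and 10.85 on the KO 24 h arrays, against 9.39 and 9.15 on the KO 6 h arrays, and in WT 9.49 and 9.58 on the WT 24 h arrays, against 9.31 and 9.03 on the WT 6 h arrays (1.32 ± 0.15, adjusted p = 0.000593). The Sprr2 genes are similar in sequence, so their probes may cross-read. Outside the list, Aoc1, a diamine oxidase, read 9.88 and 9.61 on the KO 24 h arrays, against 8.88 and 8.74 on the KO 6 h arrays, and in WT 11.51 and 11.14 on the WT 24 h arrays, against 8.57 and 8.73 on the WT 6 h arrays (-1.74 ± 0.20, adjusted p = 0.000841). Arg1, the arginase, read 8.82 and 8.74 on the KO 24 h arrays, against 8.14 and 8.10 on the KO 6 h arrays, and in WT 10.26 and 10.45 on the WT 24 h arrays, against 8.19 and 8.23 on the WT 6 h arrays (-1.48 ± 0.24, adjusted p = 0.00749). Both rose in both genotypes and stood highest on the WT 24 h arrays. Epithelial markers, which rose in 7 of 16 members in KO and 11 in WT, held 4 genes lower in KO by this test (0 or 1 without any 1 array other than the first KO 6 h array), and their part in the secretory differences was not tested. Golm1, a Golgi membrane protein gene, differed likewise (-1.51, adjusted p = 0.0101), a call lost without the first WT 6 h array (-1.47, adjusted p = 0.0553).

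Ihh and Il17rb fell less in KO than in WT. Ihh read 8.17 and 8.06 on the KO 24 h arrays, against 8.87 and 8.53 on the KO 6 h arrays, and in WT 8.02 and 8.06 on the WT 24 h arrays, against 9.86 and 9.74 on the WT 6 h arrays (1.17 ± 0.15, limma adjusted p = 0.00154). Il17rb, a receptor for IL-25, read 10.22 and 9.97 on the KO 24 h arrays, against 10.61 and 10.66 on the KO 6 h arrays, and in WT 9.37 and 9.47 on the WT 24 h arrays, against 11.57 and 11.23 on the WT 6 h arrays (1.44 ± 0.18, adjusted p = 0.00128). The WT 6 h arrays were the highest in both genes, and both genotypes fell. Ihh lay under the array median of 8.20 at 24 h in both genotypes, so its difference between them lay in the 6 h levels. Lgr5, the R-spondin receptor, read 9.03 and 8.79 on the KO 24 h arrays, against 8.68 and 8.57 on the KO 6 h arrays, and in WT 8.33 and 8.27 on the WT 24 h arrays, against 8.96 and 8.80 on the WT 6 h arrays (0.87 ± 0.14, adjusted p = 0.00737). It fell in WT, while its small KO rise (0.29) was lost without the first KO 24 h array (0.16, adjusted p = 0.328) or the second KO 6 h array (0.23, adjusted p = 0.179). Egln3, an oxygen sensor that rose in WT, read 9.79 and 9.60 on the KO 24 h arrays, against 9.29 and 9.61 on the KO 6 h arrays, and in WT 10.64 and 10.39 on the WT 24 h arrays, against 8.89 and 8.90 on the WT 6 h arrays (-1.38 ± 0.15, adjusted p = 0.000407), while another probe showed almost no difference. Its KO arrays overlapped between the times.

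Immediate-early genes fell more in KO than in WT in 6 of 34 members, Fos, Gadd45a, Ier3, Klf4, Fosl2 and Ccn1. Of all genes 1.46% had the lower difference in KO. Fosl2, an AP-1 member, read 10.89 and 10.81 on the KO 24 h arrays, against 12.36 and 12.46 on the KO 6 h arrays, and in WT 11.35 and 11.44 on the WT 24 h arrays, against 12.21 and 12.24 on the WT 6 h arrays (-0.74 ± 0.10, limma adjusted p = 0.00332), with another probe at -0.10. It kept its call throughout. Gadd45a read 10.69 and 10.47 on the KO 24 h arrays, against 11.89 and 12.78 on the KO 6 h arrays, and in WT 11.16 and 11.32 on the WT 24 h arrays, against 11.63 and 11.53 on the WT 6 h arrays (-1.41 ± 0.29, adjusted p = 0.0229). For Gadd45a the KO 24 h arrays were the lowest and the KO 6 h arrays the highest of the 8, and its call was lost without either KO 24 h array or any WT array (adjusted p = 0.0565 to 0.0976). The count of 6 was 12 without the first KO 6 h array, 3 without the second, 2 with the first WT 24 h array left out and 1 for each other array.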

How the data were processed

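The 17 samples were total uterine RNA on Illumina MouseWG-6 v2 bead arrays. The authors deposited log2 expression values, for which the submitters' processing notes name BeadStudio and no version. The log2 scale and the quantile normalization were read from the deposited values, whose columns share the same quantiles; no source used here states the background correction or log offset. Of 45281 probes 34885 carry 1 symbol in the platform annotation. Kept were probes that exceeded the median of an array on 2 or more of the 17, and a gene took its probe with the highest mean, giving 14737 genes. limma 3.58.1 in R 4.3.3 fitted 8 group means on all 17 arrays and tested 24 h minus 6 h in KO, the same in WT, and the KO minus the WT difference, with Benjamini-Hochberg adjustment over all genes at 0.05. The procedure was tested on simulated data.

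Alternatives were the probe filter, the mean of a gene's probes, array weights, variance settings, centring, fewer groups, a replicate block and leaving out each array. Named by rule were the 15 largest rises and 15 largest falls in KO without overlap, the 10 highest and 10 lowest KO minus WT differences, in each list the 4 members with the largest KO difference, and Egr1. Other genes were named after their values were seen. In the Results, another probe of a named gene is given where its sign is opposite or its size under 25% of the gene's. The list of flagged genes gives no other probes, so its silence does not mean that the probes agree. The members and lists were chosen with earlier results of these data known. Arrays carry no counts, so their number limits the precision. Same-numbered arrays of the groups did not deviate together (KO 24 h with KO 6 h, r = -0.04; 5 of 28 group pairs over 0.1), so the numbers were not taken as pairs.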

Additional observations from a re-analysis of the deposited data

Results flagged for a closer look

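The genes in this section stand out because the 24 h minus 6 h difference in KO differed from that in WT, by the limma test of that difference at an adjusted p under 0.05. Each value is the KO minus the WT difference on the log2 scale. The differences that kept their call under every alternative and with any 1 array left out, and were higher in KO, were Il17rb (1.44), Sprr2e (1.32), Zfp367 (1.30), Ihh (1.17) and Lgr5 (0.87). Those lower in KO were Ccl21c (-3.18), Ccl21a (-2.89), LOC100041504 (-2.87), Aoc1 (-1.74), Cxcl17 (-1.55), Arg1 (-1.48), Pglyrp1 (-1.45), Egln3 (-1.38), Pigr (-1.22), Sprr2d (-0.84) and Fosl2 (-0.74).

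The other 42 lost the call without at least 1 array. Among them, the DNA replication genes higher in KO were Cdc6 (1.29), E2f1 (1.29), Fen1 (1.10), Cdc45 (1.02), Pold1 (1.01), Pole (0.79), Gins1 (0.75), Mcm7 (0.74), Dut (0.71), Ccne2 (0.61), Rfc5 (0.58) and Pcna (0.56). Other genes higher in KO were Slc25a48 (1.83), Hdc (1.57), Ung (1.32), Dclk3 (1.22), Dnah11 (1.21), Gstm7 (1.04), Il1r2 (0.87), Angpt2 (0.85), Flt1 (0.72), Nr2f2 (0.71) and Rrp9 (0.45). Genes lower in KO were Ltf (-2.25), Ifi27l2a (-1.68), Golm1 (-1.51), Fos (-1.43), Gadd45a (-1.41), Ier3 (-1.14), Klf4 (-1.09), Cxcl1 (-0.87), Cldn4 (-0.83), Prg2 (-0.76), Stc2 (-0.73), Cxcl16 (-0.73), Bhlhe40 (-0.73), Ccn1 (-0.62), Krt18 (-0.60), Cdh1 (-0.54), Ankrd37 (-0.51), Cldn7 (-0.45) and Mx1 (-0.42).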

How the results depend on the processing

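The KO step called 4325 to 5876 genes under the alternatives, against 5643, and 4325 to 5194 with 1 of its arrays left out. Of 175 named KO calls 150 held under every alternative that tested them (171 were tested under the stricter filter), 24 were lost without at least 1 array and 9 under another setting. Averaging a gene's probes moved 34 of the 175 by over 1.5 times. Averaging also took away the call of the KO minus WT difference in Nr2f2 (0.26, limma adjusted p = 0.228) and Rfc5 (0.21, 0.199). Cdc6 (0.59, 0.139), Ccn1 (-0.37, 0.117) and Cxcl1 (-0.87, 0.0523) lost that call too. The count of genes whose KO difference differed from the WT difference, 399, depended on the estimate of spread: it was 603 without the 0 h arrays, 871 with only the groups in the contrast and 992 with array weights, and 74 to 671 with 1 array left out. The cause was not tested. With the replicate block, by numbers that did not pair the samples, the counts were 5607, 5602 and 366, and 7 named genes lost the call of the difference: Ccn1 (adjusted p = 0.0625), Cxcl1 (0.069), E2f1 (0.0577), Fen1 (0.0501), Gins1 (0.0508), Mx1 (0.0543) and Stc2 (0.064). Some KO differences that had not passed changed sign with 1 array left out: Adipoq ran over -1.995 to 0.45, Bhlhe40 -0.18 to 0.24, Cdh1 -0.027 to 0.12, Hdc -0.53 to 0.27, Ifi27l2a -0.34 to 0.49, Krt18 -0.087 to 0.12, Pglyrp1 -0.29 to 0.12 and Stc2 -0.046 to 0.32. Krt18 was -0.0033 with each array centred on its median. With 2 arrays a group, a difference that did not pass is not shown to be absent.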

Other observations

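Histone genes, collected as a group after their values were seen, rose in 27 of 47 members tested in KO and fell in 0. Of all genes 19.7% rose and 18.6% fell. The histone median log2 difference in KO was 0.36. In WT 31 rose, with a median of 0.55. The H2A genes held the largest KO differences, 11 of 16 higher with a median of 2.53, against 12 of 16 and a median of 1.57 in WT. Of these 16 genes 0 passed the test of the KO minus WT difference in either direction. Over all 47 histone genes 0 had the higher difference in KO and 1 the lower, where 1.25% and 1.46% of all genes did. Among H2B genes 9 of 11 rose in KO (median 0.75) and 9 in WT (1.15). The H3 genes rose in 4 of 8 members, the H4 genes in 3 of 9 and the linker H1 genes in 0 of 3 in KO. These genes are near-identical, so several probes may read the same transcripts.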
